A study of Mus musculus with 18 samples.

Results

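The change after total abdominal irradiation (TAI) that was common to male and female mice was measured in messenger RNA of the small intestine. It was taken from 12 of 18 libraries, the 6 TAI libraries and the 6 control libraries, as the mean of the male and the female difference, so that each series was set against its own controls. The groups were irradiated male mice (MTAI), male mice without irradiation (Mcon), irradiated female mice (FTAI) and female mice without irradiation (Fcon), with 3 libraries each. All were wild type C57BL/6 mice, the abdomen of the irradiated mice was exposed to 12 Gy, and day 21 after irradiation was the time of sampling. Neither the age of the mice nor the part of the small intestine is given in the labels, and the labels do not say that replicates came from separate mice, so p values measure the spread between these libraries. The other 6 libraries, irradiated males given simvastatin and irradiated females fed a high-fat diet, entered the filter on low values, the estimate of the spread and the principal components, and no difference given here.

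The small intestine is lined by an epithelium that is renewed from stem cells in the crypts, and ionizing radiation kills dividing crypt cells before the surviving ones rebuild the lining. Paneth cells at the base of the crypts secrete alpha-defensins, goblet cells secrete mucus, and enterocytes absorb nutrients. Interferons made by immune cells induce large GTPases that attack intracellular microbes, and metallothioneins are small proteins that bind zinc and copper and are induced by metals, glucocorticoids and inflammation.

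Values are FPKM, fragment numbers scaled for transcript length and for library depth, summed over the transcripts of a gene symbol. The sums of the 12 libraries lay between 390703 and 417937 FPKM, and 10540 to 11752 genes reached 1 FPKM in them. FPKM keep no read totals. The spacing of low values put the depth of the libraries at 0.787 to 1.18 times that of Fcon replicate 1. All 8 enterocyte markers were above 1 FPKM and summed to 17350 to 19270 FPKM in MTAI, against 17780 to 19930 FPKM in Mcon, and to 17440 to 21130 FPKM in FTAI, against 24600 to 25890 FPKM in Fcon, lower in every FTAI library than in every Fcon library. Of 4 markers of pancreatic acinar cells 2 were at 0, and the 4 Y-linked genes summed to at most 0.0287 FPKM in the female libraries. FTAI replicate 3 lay farthest along the first principal component, which held 35.6% of the variance. A gene was tested when it reached 1 FPKM in 3 or more of the 18 libraries, which 11767 did. The test was limma on log2(FPKM + 1), with calls at an adjusted p (Benjamini-Hochberg) under 0.05. Differences below are TAI minus control on this scale, which understates the change of genes of few FPKM.

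The sequences upstream of 5 of the genes that were higher after TAI in both series are shown first, because the 2 metallothionein genes and the interferon-inducible GTPases are described as groups below. Each window runs 5′ to 3′ over 300 bases and ends just past the gene start given by RefSeq on GRCm38.p6. In Mt1 (chr8:94178839-94179138, plus strand) and Mt2 (chr8:94172368-94172667, plus strand) capitals mark TGCACNC or TGCGCNC on either strand, the core of the metal response element. In Irgm1 (chr11:48871371-48871670, minus strand), Tgtp1 (chr11:48992197-48992496, minus strand) and Tgtp2 (chr11:49064163-49064462, minus strand) capitals mark GAAA and GAAA spaced by NN, on either strand, the core of the interferon-stimulated response element, and the 2 matches of Irgm1 overlap.
Mt1: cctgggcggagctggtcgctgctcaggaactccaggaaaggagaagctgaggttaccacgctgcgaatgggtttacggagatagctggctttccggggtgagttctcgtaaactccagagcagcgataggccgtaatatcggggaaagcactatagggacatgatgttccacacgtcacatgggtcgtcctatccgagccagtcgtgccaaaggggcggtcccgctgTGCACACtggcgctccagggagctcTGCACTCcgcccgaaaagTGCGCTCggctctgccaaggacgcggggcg
Mt2: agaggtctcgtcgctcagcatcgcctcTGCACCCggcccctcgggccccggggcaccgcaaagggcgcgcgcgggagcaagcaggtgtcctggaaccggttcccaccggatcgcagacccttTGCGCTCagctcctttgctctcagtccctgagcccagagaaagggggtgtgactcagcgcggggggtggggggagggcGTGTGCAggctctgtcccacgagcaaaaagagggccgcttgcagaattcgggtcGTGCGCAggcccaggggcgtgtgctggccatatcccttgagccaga
Irgm1: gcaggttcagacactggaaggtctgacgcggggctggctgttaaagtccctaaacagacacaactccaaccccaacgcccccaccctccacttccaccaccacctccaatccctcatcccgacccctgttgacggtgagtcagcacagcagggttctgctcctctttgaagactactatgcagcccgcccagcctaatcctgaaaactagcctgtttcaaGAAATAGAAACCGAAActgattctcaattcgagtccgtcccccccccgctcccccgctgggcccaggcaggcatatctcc
Tgtp1: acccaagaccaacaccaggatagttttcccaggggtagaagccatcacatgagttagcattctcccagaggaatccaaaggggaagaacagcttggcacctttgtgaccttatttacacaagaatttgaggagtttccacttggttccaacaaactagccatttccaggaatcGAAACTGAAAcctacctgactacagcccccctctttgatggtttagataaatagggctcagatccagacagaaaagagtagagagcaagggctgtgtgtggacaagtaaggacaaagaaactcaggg
Tgtp2: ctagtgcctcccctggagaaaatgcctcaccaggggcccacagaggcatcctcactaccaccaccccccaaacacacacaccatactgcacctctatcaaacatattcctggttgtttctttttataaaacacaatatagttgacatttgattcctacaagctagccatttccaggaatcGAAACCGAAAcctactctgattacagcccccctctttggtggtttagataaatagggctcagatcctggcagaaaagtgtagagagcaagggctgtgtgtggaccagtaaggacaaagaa
The Mt1 window held 3 matches and the Mt2 window 4, where 25.7% of 32851 windows held at least 1, and 29.7% of the 185 windows found for 126 of the 177 shared genes defined below. The spaced GAAA pair was in 3.44% of all windows and in 10.3% of the same 185. These motifs were searched after the values of the genes were seen, and a match is a stretch of letters, not a site shown to be bound.

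On average over both series, 143 genes were higher after TAI (1.22% of the genes tested) and 56 were lower (0.476%). Of these 199 genes (1.69%), 177 (1.5%) had the same direction in males and females, 126 higher (1.07%) and 51 lower (0.433%), and these are the shared genes described here. The other 22 (0.187%) had opposite directions in the 2 series, and for all 22 the male and female change differed past the threshold. The median difference over all genes was 0.08 (0.05 in males and 0.12 in females), and the balance of higher and lower calls depended on the scaling, with 88 higher and 99 lower under median ratio scaling and 91 higher and 150 lower under quantile normalization. Most shared changes were small: the median difference was 0.47 among the 126 higher genes and −0.43 among the 51 lower genes, and 11 genes reached a size of 1. Across all genes the male and female differences had a Pearson correlation of 0.32 and a Spearman correlation of 0.29, with genes of the same libraries as points. In a bulk tissue, fewer cells of a type and less RNA per cell cannot be told apart.

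**Figure D1:**
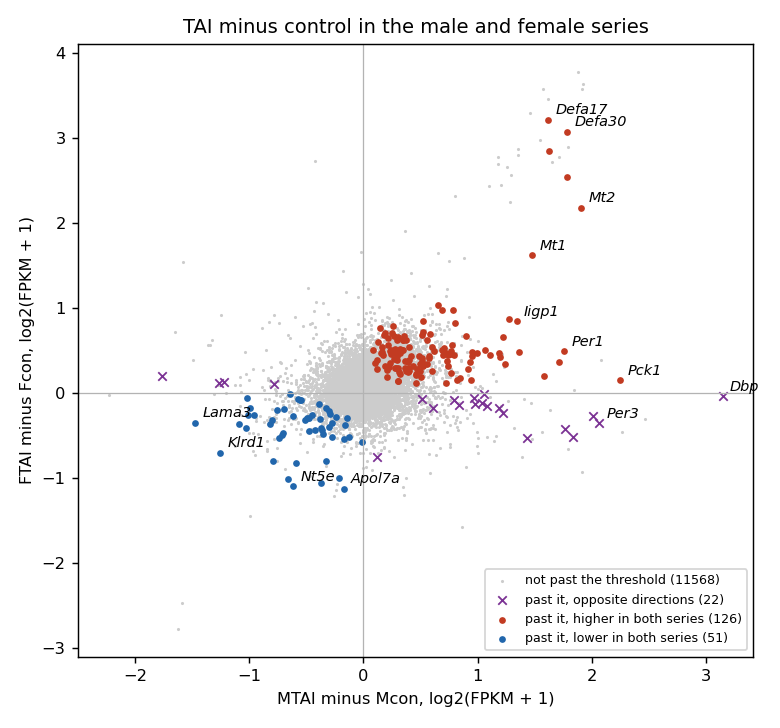
Difference between TAI and control libraries of each gene in the male series (x axis) and the female series (y axis), both on log2(FPKM + 1). Red points are the 126 genes higher and blue points the 51 genes lower in both series, purple crosses are the 22 genes past the threshold with opposite directions, and the shared genes with the largest average differences are Defa30 (2.43), Defa17 (2.42) and Mt2 (2.04), beside Gm14851 and AY761184.

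The TAI and control libraries did not overlap in either series, with the same direction, for 213 genes (1.81%: 157 higher, 1.33% of the genes tested, and 56 lower, 0.476%), and for 171 genes (1.45%) they did not overlap but moved in opposite directions. Among the 177 shared genes, 89 did not overlap in either series. Shared genes were chosen on these same libraries, so this count and those among shared genes below are not separate support. An unadjusted p under 0.05 was reached on average by 19.4% of all genes, and in each series with 1 direction by 194 genes (1.65%), 147 higher (1.25%) and 47 lower (0.399%), of which 114 were shared genes. The number of calls rested heavily on single libraries: it was 1040 without FTAI replicate 1, 53 without FTAI replicate 2, 33 without Fcon replicate 1, 69 without Fcon replicate 3, 123, 59 and 38 without MTAI replicates 1, 2 and 3, and 63 and 88 without Mcon replicates 1 and 3, against 199 with all. With the 12 TAI and control libraries alone 18 genes were called. An additive model of these 12 fitted the series as a block and counted unequal responses of males and females to TAI as error. In this model no gene was called by limma, with 1575 genes at an unadjusted p under 0.05. Of the shared genes, 25 stayed past the threshold with each of the 12 libraries left out in turn, 18 higher and 7 lower. Of these 25, 23 were also called with quantile normalization, all 25 with median ratio scaling, 18 with groups weighted by their own spread and 11 with the 12 libraries alone. The TAI and control libraries of 16 of the 25 did not overlap in either series (12 higher and 4 lower). These 16 genes were Iigp1, Gbp10, Gm4951, F830016B08Rik, Tns4, Akr1c14, Fut4, Car8, Car9, Gusb, Kctd6 and Paox among the higher, and Klrd1, Nt5e, Gm14085 and Tmem64 among the lower.

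The metallothioneins Mt1 and Mt2 rose on average, in 1 direction in both series. Their average differences were the largest of the shared genes outside the Defa genes, Gm14851 and AY761184, which are described together below. Mt1 had 69.6, 65.4 and 77.3 FPKM in MTAI, against 34.7, 23.1 and 18.7 FPKM in Mcon. In females it had 29.7, 93.5 and 134 FPKM in FTAI, against 25, 23.5 and 20 FPKM in Fcon. Every TAI library was above every control library of its series, although FTAI replicate 1 was close to the controls. Mt2 had 22.9, 25.4 and 34.9 FPKM in MTAI, against 12.5, 8.50 and 2.36 FPKM in Mcon. It had 9.73, 36.5 and 70.8 FPKM in FTAI, against 7.54, 6.38 and 3.89 FPKM in Fcon, again without overlap. The average difference was 1.55 ± 0.30 for Mt1 (SE, adjusted p = 0.0263 from limma) and 2.04 ± 0.44 for Mt2 (adjusted p = 0.0316 from limma). With 1 library left out the adjusted p lay between 0.00206 and 0.0658 for Mt1, and between 0.00595 and 0.0854 for Mt2. Mt1 missed the threshold without FTAI replicate 2, Fcon replicates 1 or 3, MTAI replicates 2 or 3 or Mcon replicate 3, and Mt2 also without MTAI replicate 1. Neither gene was called with the 12 libraries alone or with groups weighted by their own spread, nor with the replicate number as a block. The transporters that move zinc did not follow as a group. Of 20 measured, 1 was higher and 1 was lower, beside 1.07% and 0.433% of all genes. They are a family read after values were seen, with a median difference of −0.03 beside 0.08 over all genes. Slc39a4, the importer of dietary zinc on the enterocyte surface, fell (61.0 ± 3.90 FPKM in MTAI, against 91.2 ± 5.58 FPKM in Mcon, and 56.8 ± 2.03 FPKM in FTAI, against 60.0 ± 7.38 FPKM in Fcon, mean ± SD, n = 3 each), and its female libraries overlapped. Its adjusted p was 0.0379 from limma, and 0.0229 to 0.117 with 1 library left out, and its difference was −0.57 in males and −0.07 in females. Slc39a11 was the higher one, at 0.12 in males, whose libraries overlapped, and 0.60 in females. The adjusted p of Slc39a11 was 0.0280 from limma, and 0.0183 to 0.0626 with 1 library left out. Slc30a1, the exporter that metals induce together with metallothioneins, had an average difference of −0.10 ± 0.19 and was not called.

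The interferon-inducible GTPases of the IRG and GBP families, which disrupt the vacuoles of intracellular microbes, held 11 of the shared higher genes. Of 22 measured members 11 were higher and none was lower, where 1.07% of all genes were shared and higher, and the median difference was 0.51 beside 0.08 over all genes. This family and its members other than Iigp1 were chosen after values were seen. Differences were positive in both series for 20 of the 22. Every TAI library was above every control library in both series for 8 members, as for 1.33% of all genes. Counts for 1 series alone are not given, because no share of all genes was taken for them. Iigp1 had 15.1, 9.71 and 9.95 FPKM in MTAI, against 5.92, 4.38 and 2.12 FPKM in Mcon. In females Iigp1 had 10.4, 9.26 and 12.6 FPKM in FTAI, against 6.25, 6.02 and 4.33 FPKM in Fcon. The libraries of Iigp1 did not overlap in either series, and its average difference was 1.10 ± 0.19 (adjusted p = 0.0123 from limma, and 0.0105 to 0.0355 with 1 library left out). Gbp10 had 4.82, 3.16 and 2.99 FPKM in MTAI, against 1.22, 0.960 and 0.856 FPKM in Mcon. It had 5.06, 4.07 and 3.19 FPKM in FTAI, against 2.71, 2.92 and 2.61 FPKM in Fcon, so that its libraries did not overlap either (average difference 0.81 ± 0.12, adjusted p = 0.00692 from limma).

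Irgm1, a regulator of the other IRG proteins and of autophagy, was the most abundant of the called members. It had 58.9, 56.0 and 54.2 FPKM in MTAI, against 26.7, 27.2 and 29.4 FPKM in Mcon. In females it had 56.6, 50.4 and 40.6 FPKM in FTAI, against 27.2, 35.3 and 43.6 FPKM in Fcon. The male libraries lay apart, the female ones overlapped in FTAI replicate 3 and Fcon replicate 3, and the average difference was 0.74 ± 0.13 (adjusted p = 0.0123 from limma). Gm4951 and F830016B08Rik, named Ifgga2 and Ifgga4 in RefSeq, were low and did not overlap in either series. Gm4951 had 1.70, 1.64 and 1.38 FPKM in MTAI, against 0.892, 0.670 and 0.482 FPKM in Mcon, and 1.5, 1.43 and 2.13 FPKM in FTAI, against 1.02, 0.867 and 0.807 FPKM in Fcon. Its average difference was 0.56 ± 0.09 (adjusted p = 0.00996 from limma). The other called members were Tgtp1, Tgtp2, Gbp3, Gbp4, Gbp7 and Gm12185, with average differences of 0.72, 0.70, 0.55, 0.57, 0.50 and 0.34. Igtp, more abundant still at 131, 83.2 and 73.3 FPKM in MTAI, against 47.4, 55.2 and 56.3 FPKM in Mcon, had overlapping female libraries and was not called (adjusted p = 0.188 from limma, and 0.0404 to 0.336 with 1 library left out). Between 5 and 11 of the 11 calls held with 1 library left out, 8 held with either scaling and 3 with the 12 libraries alone. Tgtp1 and Tgtp2 are near-identical copies, as are several Gbp genes, so the split of fragments between them is uncertain.

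**Figure D2:**
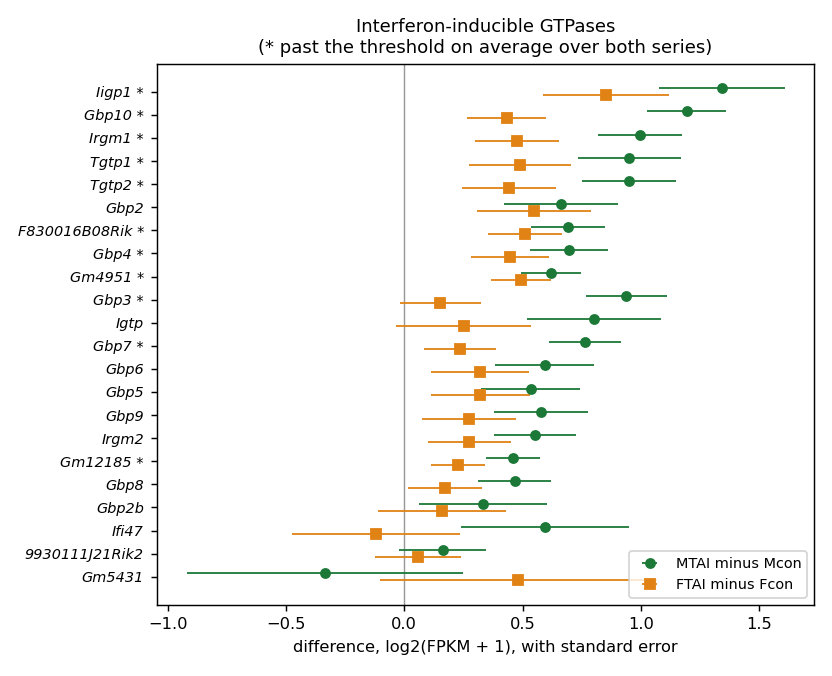
TAI minus control difference of 22 interferon-inducible GTPase genes in the male series (green circles) and the female series (orange squares) on log2(FPKM + 1), with standard errors, sorted by their average. Differences are positive in both series for 20 of the 22 genes, and the 11 genes with an asterisk passed the threshold on average over both series.

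Other genes that interferons induce were read from further lists. Of a list of 27 measured genes of the general interferon response none was called by limma, and 2 were higher at an unadjusted p under 0.05. Over all genes 19.4% reached this unadjusted p in either direction. The median difference of the list was 0.18 (0.43 in males and −0.09 in females). The Ifi200 genes, a cluster that includes sensors of DNA, were chosen after values were seen. Of 11 measured, 3 were higher (Ifi204, Ifi207 and Ifi211, with average differences of 0.65, 0.62 and 0.60) beside 1.07% of all genes. All 3 had overlapping female libraries, and each call was lost with at least 6 of the 12 libraries left out. The chemokine Cxcl9, which draws T cells and is induced by interferon gamma, was higher, with 4.93, 3.51 and 4.58 FPKM in MTAI, against 3.16, 2.27 and 1.09 FPKM in Mcon, and 5.47, 3.32 and 3.94 FPKM in FTAI, against 1.79, 1.80 and 2.15 FPKM in Fcon. Its libraries did not overlap in either series (average difference 0.81 ± 0.16, adjusted p = 0.0280 from limma), but the call was lost without Fcon replicates 1 or 3 or MTAI replicates 1 or 3, with an adjusted p of up to 0.0739. Cxcl9 was the 1 of 7 measured inflammatory cytokines that was called, where 1.07% of all genes were shared and higher. With quantile normalization none of the 7 was called, and with median ratio scaling 1 was. Ly6a, a surface protein of stem and immune cells that interferon induces, had 20.9, 15 and 9.02 FPKM in MTAI, against 6.59, 4.52 and 4.88 FPKM in Mcon, and 20.1, 18 and 18.3 FPKM in FTAI, against 7.81, 12.1 and 9.66 FPKM in Fcon. Its average difference of 1.08 ± 0.19 (adjusted p = 0.0142 from limma) missed the threshold in 1 of the 12 fits that leave out a library, without Fcon replicate 1, at 0.0562. Summed markers of macrophages, which also express these genes, were 16.7 to 22.1 FPKM in MTAI, against 5.50 to 20.8 FPKM in Mcon, and 12.6 to 27.6 FPKM in FTAI, against 10.5 to 15.8 FPKM in Fcon, with all 3 markers detected, and their part in these results was not tested.

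The alpha-defensins, the antimicrobial peptides of Paneth cell granules, had larger differences than the other families described and uneven ones. All 18 measured Defa genes were positive in both series, with a median difference of 2.30 (1.59 in males and 2.94 in females) beside 0.08 over all genes. Every TAI library of 9 was above every control library in both series, as for 1.33% of all genes. Only Defa17 and Defa30 passed the threshold, where 1.07% of all genes were shared and higher. The family was chosen after values were seen. Summed over the 18 genes, defensin FPKM were 528, 391 and 587 in MTAI, against 145, 276 and 110 in Mcon. They were 227, 482 and 7647 in FTAI, against 89.1, 205 and 65.4 in Fcon. FTAI replicate 3 thus stood far above every other library, while the 3 male libraries lay close together and above all male controls. Defa17 had 52.4, 44.4 and 50.1 FPKM in MTAI, against 13, 27.4 and 9.84 FPKM in Mcon, and 33.3, 43.6 and 563 FPKM in FTAI, against 7.35, 19.0 and 5.41 FPKM in Fcon. Its average difference was 2.42 ± 0.54 (adjusted p = 0.0356 from limma). Without FTAI replicate 3 the adjusted p was 0.0114 for Defa17 and 0.0179 for Defa30, whereas the call of Defa17 was lost with 8 of the 12 libraries left out in turn (adjusted p up to 0.105) and that of Defa30 with 9 (up to 0.124). Gm14851 and AY761184, which have no Defa symbol and were not counted among the 18, also rose (2.24 and 2.17). Like Defa17 they were highest in FTAI replicate 3, at 519 and 306 FPKM. Each call was lost with 8 or 9 of the 12 libraries left out. Alpha-defensin genes are near-identical copies, so the fragments of single genes are uncertain.

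The 5 markers of Paneth cells summed to 364 to 459 FPKM in MTAI, against 154 to 318 FPKM in Mcon, and to 148 to 3041 FPKM in FTAI, against 87.3 to 176 FPKM in Fcon, all of them detected. FTAI replicate 3, with the highest defensin sum, also had the highest score of all 18 libraries on the first principal component, and Mcon replicate 2 and Fcon replicate 2 had the highest of both among their controls. FTAI scored −20.4, 0.02 and 43.8, against −20.5, −3.53 and −29.0 in Fcon, and MTAI scored −0.76, 7.40 and 21.4, against −10.2, 9.50 and −13.9 in Mcon. Proliferation and ribosome lists had positive medians and no calls. Over all genes 19.4% reached an unadjusted p under 0.05 in either direction, beside the counts of these lists and of p53 targets below. No share by direction was taken. All 34 genes of cell cycle and replication were positive in both series, with a median difference of 0.46, none was called by limma and 12 were higher at an unadjusted p under 0.05. Of 16 stem cell and Wnt target genes, 15 were positive in both series, with a median of 0.39, none was called by limma and 7 were higher at an unadjusted p under 0.05. For 32 cytosolic ribosomal protein genes the median was 0.35, with none called by limma and 4 higher at an unadjusted p under 0.05. The part of this component in the defensin differences was not tested. Of 20 targets of p53, the factor that radiation activates, none was called by limma, a median of 0.10, 2 members higher and 1 lower at the unadjusted threshold of 0.05.

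**Figure D3:**
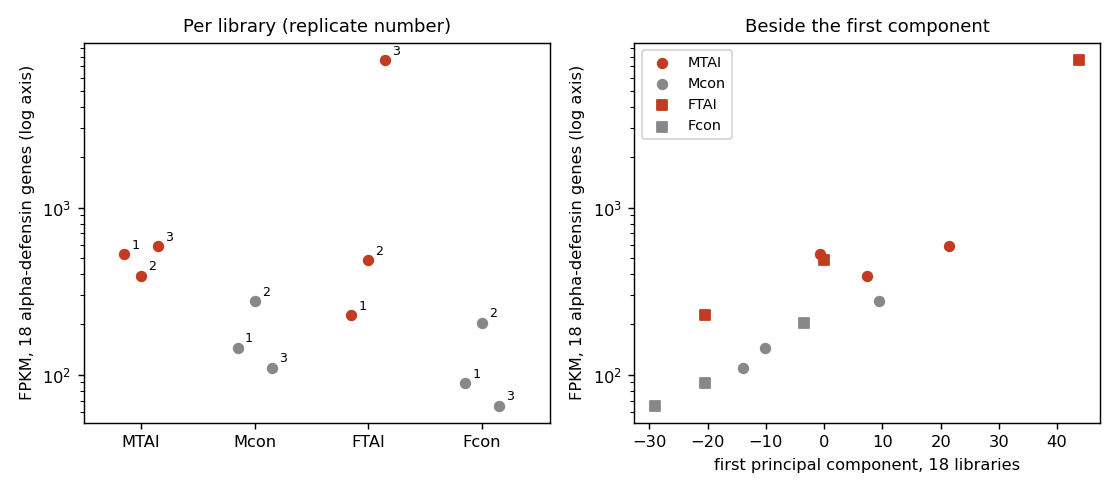
FPKM summed over 18 alpha-defensin genes on a log axis, per library with its replicate number (left) and against the score of the library on the first principal component (right), TAI in red and controls in grey, circles for male and squares for female libraries. FTAI replicate 3 lies at 7647 FPKM and a score of 43.8, and the 3 MTAI libraries at 391 to 587 FPKM lie above all Mcon libraries.

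Among the genes lower in both series, 7 kept their call with every library left out, Klrd1 and Nt5e with the largest differences. Klrd1, which encodes the CD94 receptor of natural killer cells and intraepithelial T cells, had 1.90, 0.889 and 0.590 FPKM in MTAI, against 5.42, 4.12 and 2.60 FPKM in Mcon. In females it had 0.719, 0.734 and 1.15 FPKM in FTAI, against 1.78, 2.78 and 1.61 FPKM in Fcon. No TAI library reached its controls, and the average difference was −0.98 ± 0.16 (adjusted p = 0.0102 from limma, and 0.00613 to 0.0342 with 1 library left out). The 4 summed T cell markers were 52.5 to 106 FPKM in MTAI, against 65.6 to 164 FPKM in Mcon, and 83.8 to 101 FPKM in FTAI, against 103 to 130 FPKM in Fcon, all detected, and their part in the fall of Klrd1 was not tested. Of 17 T cell genes none was called by limma (1 with quantile normalization), 7 were lower at an unadjusted p under 0.05, and the median difference was −0.26. Over all genes 19.4% reached this unadjusted p in either direction.

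Nt5e encodes CD73, the surface enzyme that makes adenosine from AMP. It had 14.1, 10.3 and 10 FPKM in MTAI, against 18.4, 14.2 and 21.7 FPKM in Mcon, and 23.3, 27.5 and 26.5 FPKM in FTAI, against 46.0, 61.2 and 61.6 FPKM in Fcon. The groups did not overlap, narrowly so in males, and the average difference was −0.85 ± 0.13 (adjusted p = 0.00912 from limma). Slc28a2, a transporter that takes up purine nucleosides such as adenosine, also fell, to 57.2 ± 15.8 FPKM in MTAI, against 89.7 ± 17.2 FPKM in Mcon, and to 76.1 ± 30.8 FPKM in FTAI, against 147 ± 4.50 FPKM in Fcon (mean ± SD, n = 3 each). Its male libraries overlapped, and the adjusted p of 0.0242 from limma lay between 0.00278 and 0.065 with 1 library left out. Tmem64, chosen after its values were seen, changed by nearly the same amount in both series, with 5.09, 5.22 and 4.71 FPKM in MTAI, against 8.03, 7.70 and 6.42 FPKM in Mcon, and 5.62, 6.13 and 6.49 FPKM in FTAI, against 9.40, 8.69 and 7.81 FPKM in Fcon (average difference −0.46 ± 0.06, adjusted p = 0.00692 from limma). Gm14085 fell by 0.71 on average on the log2 scale, again without overlap in either series.

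Other lower genes included structural and signalling proteins. Lama3, a chain of the laminin under the epithelium, had an average difference of −0.91 ± 0.16, from 8.52, 10.2 and 5.47 FPKM in MTAI, against 29.4, 19.6 and 22.7 FPKM in Mcon, and 19.8, 13.9 and 15.4 FPKM in FTAI, against 25.3, 14.4 and 24.7 FPKM in Fcon. Its female libraries overlapped, and its adjusted p from limma was 0.0163, and 0.0571 without Fcon replicate 1. Bok, a pro-apoptotic member of the BCL2 family, had an average difference of −0.73 ± 0.12 and kept its call with every library left out, and Bmp8a, a ligand of the BMP family, one of −0.79 ± 0.16 with no overlap in either series, lost with 6 of the 12 libraries left out (adjusted p up to 0.0721 from limma). Cd55, which protects cells from complement, had −0.60 ± 0.12 with overlapping female libraries, lost with 5 left out (up to 0.0694). Apol7a had a difference of −1.12 in females and of −0.17 in males. Clca4a, with 324 ± 112 FPKM in MTAI, against 366 ± 52.5 FPKM in Mcon, and 360 ± 30.6 FPKM in FTAI, against 717 ± 75.3 FPKM in Fcon, likewise overlapped in males and not in females.

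**Figure D4:**
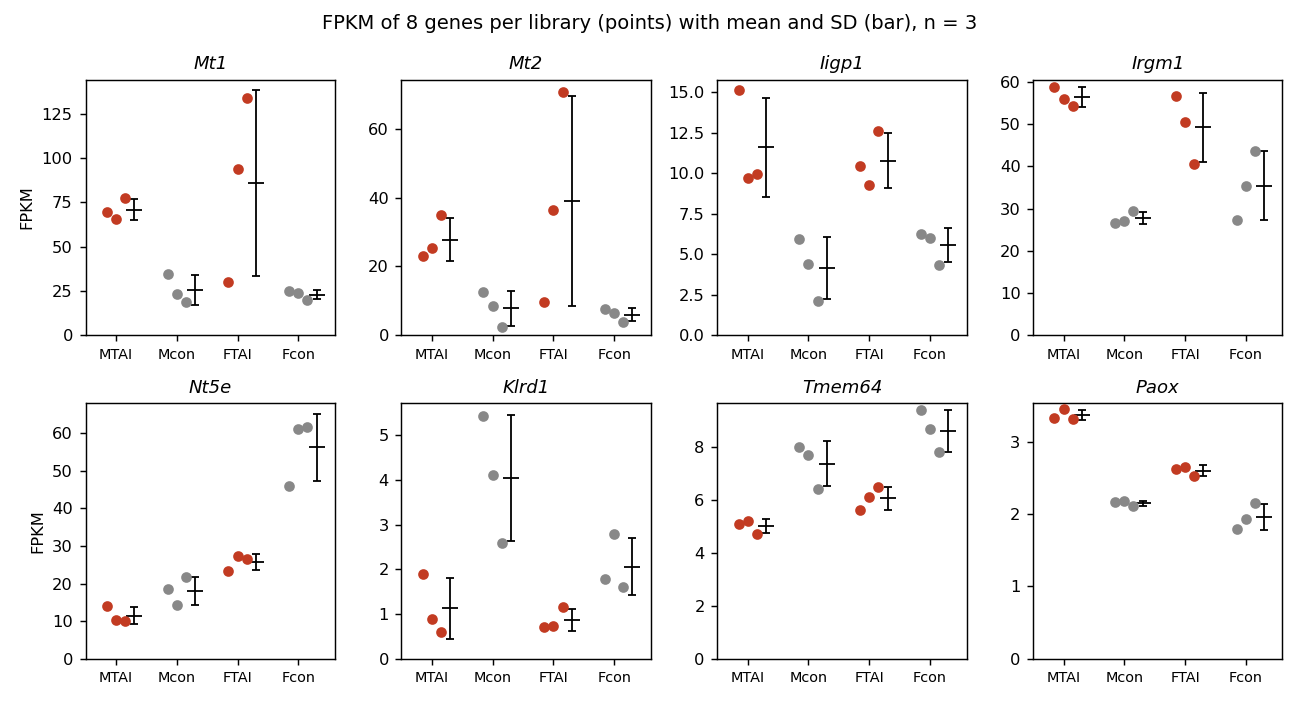
FPKM of 8 genes in each of the 3 libraries of MTAI, Mcon, FTAI and Fcon (points), with the mean and SD of each group (bars), TAI in red and controls in grey, each axis starting at 0. Mt1, Mt2, Iigp1 and Paox are higher and Nt5e, Klrd1 and Tmem64 lower in every TAI library than in every control of the same series, while the female libraries of Irgm1 overlap.

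Genes of mucus and of sterol uptake held a few of the lower calls. Of 13 goblet cell genes 2 fell and 1 rose, beside 0.433% and 1.07% of all genes. The median difference of 0.03 turned to −0.08 under quantile normalization and to −0.06 under median ratio scaling, where 1 and 2 members of the list were called. Zg16, a lectin of the mucus layer that binds bacteria, fell to 1138 ± 59.2 FPKM in MTAI, against 1856 ± 235 FPKM in Mcon, and to 1783 ± 265 FPKM in FTAI, against 2021 ± 279 FPKM in Fcon (adjusted p = 0.0335 from limma, and 0.0155 to 0.104 with 1 library left out). Clca1, a protease secreted with mucus, had 136 ± 27.0 FPKM in MTAI, against 277 ± 60.3 FPKM in Mcon, and 204 ± 49.7 FPKM in FTAI, against 241 ± 48.5 FPKM in Fcon. For both genes the female libraries overlapped. Gcnt3, an enzyme that branches mucin sugars, was higher (0.42 ± 0.08), with 0.72 in males and 0.12 in females, whose libraries overlapped. Its call was lost with 6 of the 12 libraries left out. Goblet marker sums were 2841 to 3027 FPKM in MTAI, against 3845 to 5244 FPKM in Mcon, and 3530 to 4527 FPKM in FTAI, against 3666 to 4870 FPKM in Fcon, with all 5 detected. Of 11 genes of sterol transport 2 fell, beside 0.433% of all genes. Npc1, which moves cholesterol out of lysosomes, had 11.1, 12.5 and 10.5 FPKM in MTAI, against 18.6, 14.3 and 16.4 FPKM in Mcon, and 13.7, 14.1 and 15.8 FPKM in FTAI, against 19.2, 18.6 and 16.2 FPKM in Fcon. Its groups did not overlap (average difference −0.39 ± 0.07, adjusted p = 0.0142 from limma, and over 0.05 without Fcon replicate 1 or MTAI replicate 3, at up to 0.0571). Npc1l1, the importer of dietary cholesterol, had a difference of −0.25 ± 0.06 with overlapping female libraries, and Npc2 and Soat1 were not called (0.23 and 0.16).

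Several other shared genes encode enzymes. Gusb (the lysosomal beta-glucuronidase), Paox (a polyamine oxidase), Car8 and Car9 (carbonic anhydrase family) and Kctd6 (an adaptor of ubiquitin ligases), all chosen after their values were seen, stayed past the threshold with every library left out. Paox had 3.33, 3.44 and 3.32 FPKM in MTAI, against 2.17, 2.18 and 2.11 FPKM in Mcon, and 2.63, 2.65 and 2.52 FPKM in FTAI, against 1.79, 1.93 and 2.15 FPKM in Fcon, the tightest of these sets. Car9 had 15.4, 14.9 and 19 FPKM in MTAI, against 10.2, 14.8 and 13.1 FPKM in Mcon, and 13.1, 15.8 and 14.3 FPKM in FTAI, against 7.94, 9.42 and 8.54 FPKM in Fcon, so that males barely separated (0.52 ± 0.09, adjusted p = 0.0119 from limma). Tns4, a focal adhesion protein, had 21.4, 20.6 and 18.1 FPKM in MTAI, against 8.63, 8.90 and 6.68 FPKM in Mcon, and 14.4, 21.5 and 17.6 FPKM in FTAI, against 14.2, 7.35 and 11.9 FPKM in Fcon, just without overlap (0.94 ± 0.14, adjusted p = 0.00692 from limma). Akr1c14, a dehydrogenase of steroids, had 11.8, 12.2 and 12.8 FPKM in MTAI, against 3.52, 4.93 and 4.19 FPKM in Mcon, and 9.52, 13 and 9.53 FPKM in FTAI, against 5.96, 7.80 and 8.20 FPKM in Fcon (0.92 ± 0.16, adjusted p = 0.0123 from limma). Of 18 genes of the NRF2 and antioxidant list 2 were higher, beside 1.07% of all genes, with a list median of 0.08 like that of all genes. The quinone reductase Nqo1 (0.42 ± 0.09) did not overlap in either series. The peroxidase Gpx1 (0.46 ± 0.10) had differences of 0.15 in males, whose libraries overlapped, and of 0.77 in females. Nfe2l2, which encodes NRF2, had a difference of 0.06 ± 0.06 and was not called. Of 17 glycolysis genes 1 was higher and 1 was lower, beside 1.07% and 0.433% of all genes. These were the aldolase Aldoa (0.35 ± 0.08) and Pfkfb3, which makes the activator of phosphofructokinase (−0.71 ± 0.16). Of 10 endothelial genes Lyve1, a marker of lymph vessels, was higher (0.33 ± 0.08), beside 1.07% of all genes. Its differences were 0.16 in males, with overlapping libraries, and 0.49 in females. The calls of Nqo1, Gpx1, Aldoa, Pfkfb3 and Lyve1 were each lost with 8 to 11 of the 12 libraries left out.

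All 20 cytosolic aminoacyl tRNA synthetases, which load amino acids onto tRNA, were positive in both series, with a median difference of 0.31 beside 0.08 over all genes. The mean of their centred log2(FPKM + 1) was 0.10, 0.20 and 0.39 in MTAI, against −0.10, 0.19 and −0.07 in Mcon, and −0.20, −0.02 and 0.39 in FTAI, against −0.36, −0.15 and −0.37 in Fcon, so that the groups overlapped in both series. In each group the library with the highest mean was also the one with the highest score on the first principal component, whose part in this result was not tested. Of the 20, Mars, Cars and Nars passed the threshold (0.43, 0.34 and 0.23) beside 1.07% of all genes, and so did Asns, the asparagine synthetase (0.62 ± 0.13), and Slc7a1, an importer of arginine and lysine (0.69 ± 0.16). Asns had 8.49, 8.69 and 11.4 FPKM in MTAI, against 5.24, 6.12 and 4.89 FPKM in Mcon, and 5, 5.80 and 9.09 FPKM in FTAI, against 3.71, 4.07 and 4.62 FPKM in Fcon, without overlap in either series. This family, Asns and Slc7a1 were chosen after values were seen. None of the 3 synthetase calls held without FTAI replicate 2, Fcon replicates 1 or 3, any 1 of the MTAI replicates, or Mcon replicates 1 or 3, while 1 held without FTAI replicate 3 and with either scaling. The call of Asns was lost with 7 of the 12 libraries left out (adjusted p up to 0.0927 from limma) and that of Slc7a1 with 8 (up to 0.127).

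Clock genes were shared only in part. The core clock loop is the feedback circuit in which PER and CRY proteins repress CLOCK and ARNTL. Of 16 of its genes, 6 were called higher on average and none lower, beside 1.22% and 0.476% of all genes. Only Per1, Ciart and Nr1d1 among these had the same direction in both series, where 1.07% of all genes were shared and higher. Per1, a repressor in the loop that glucocorticoids also induce, had 10, 11 and 14.2 FPKM in MTAI, against 3, 2.64 and 2.55 FPKM in Mcon, and 6.22, 10.4 and 8.49 FPKM in FTAI, against 5.07, 6.47 and 5.12 FPKM in Fcon. Its female libraries overlapped in 1 pair, its average difference was 1.13 ± 0.11 (adjusted p = 0.000388 from limma), and the male change of 1.76 exceeded the female change of 0.50 (adjusted p = 0.00972 for the difference, limma). Ciart, a repressor of CLOCK and ARNTL whose female libraries overlapped, had 1.87, 2.27 and 3.70 FPKM in MTAI, against 0.0520, 0.0968 and 0.0871 FPKM in Mcon, and 0.333, 1.36 and 0.555 FPKM in FTAI, against 0.492, 0.198 and 0.273 FPKM in Fcon. Nr1d1, which encodes REV-ERB alpha and was chosen after its values were seen, did not overlap in either series, with differences of 0.77 in males and 0.46 in females (adjusted p = 0.0362 from limma, and 0.0204 to 0.0959 with 1 library left out). Per2 and Per3 had differences of 1.84 and 2.07 in males and of −0.51 and −0.35 in females. Of 7 clock output genes 4 were called higher on average, Dbp, Tef, Hlf and Usp2, beside 1.22% of all genes. They likewise had male differences of 3.15, 2.01, 1.43 and 0.98 and female differences of −0.04, −0.27, −0.52 and −0.12, so that none counted as shared. The hour of collection is not given in the labels.

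**Figure D5:**
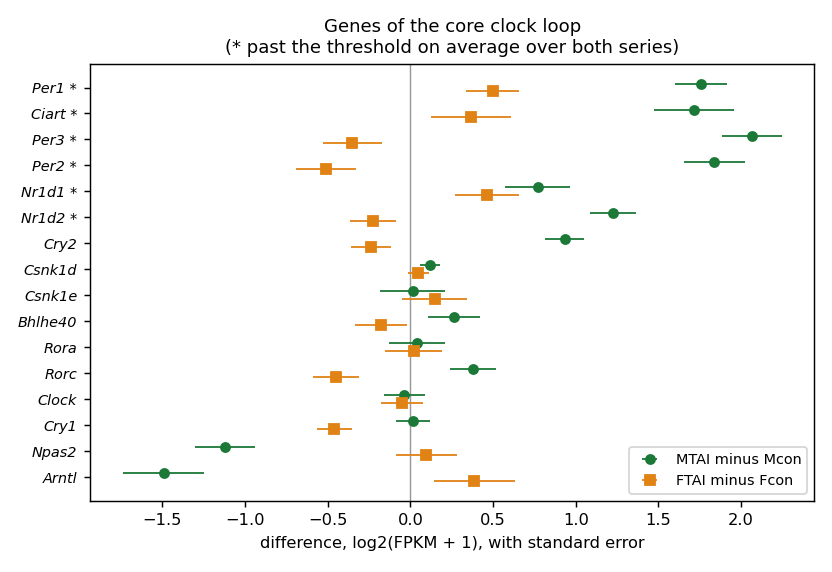
TAI minus control difference of 16 genes of the core clock loop in the male series (green circles) and the female series (orange squares) on log2(FPKM + 1), with standard errors. Per1, Ciart and Nr1d1 are positive in both series, whereas Per2 and Per3 lie at 1.84 and 2.07 in males and at −0.51 and −0.35 in females.

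The window upstream of Ciart, which held the most copies among the clock genes searched of the E-box CACGTG to which CLOCK and ARNTL bind, is shown with these copies in capitals (chr3:95882179-95882478, minus strand, RefSeq on GRCm38.p6).
Ciart: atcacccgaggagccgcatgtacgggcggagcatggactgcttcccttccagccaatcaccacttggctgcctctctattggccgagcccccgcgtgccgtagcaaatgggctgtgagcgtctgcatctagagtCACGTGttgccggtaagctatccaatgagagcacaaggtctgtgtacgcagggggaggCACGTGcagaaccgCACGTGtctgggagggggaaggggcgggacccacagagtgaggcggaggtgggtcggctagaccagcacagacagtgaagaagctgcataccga
It held 3 copies, the first of the 2 Per1 windows held 1 and the Nr1d1 window none, and 7.15% of all 32851 windows held at least 1, against 11.4% of the 185 windows of shared genes.

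Pck1, which encodes the gatekeeper enzyme of gluconeogenesis, was called on average although its female libraries overlapped. It had 105, 131 and 171 FPKM in MTAI, against 30, 28.7 and 23.2 FPKM in Mcon, but 103, 187 and 111 FPKM in FTAI, against 131, 101 and 117 FPKM in Fcon. Its average difference of 1.20 ± 0.18 (adjusted p = 0.00692 from limma) combined 2.25 in males and 0.15 in females, and the 2 differed (adjusted p = 0.00801, limma). In all, 6 of the 177 shared genes had a change that differed between the series: Pck1, Per1, Apol7a, Fut4, Slc17a4 and Anxa7. Among genes chosen for their part in radiation injury or its treatment, Slc2a1, Abcb1a, Abcb1b, Pgk1 and Tnf were not called on average (differences of 0.19, 0.27, 0.32, 0.09 and −0.15), and Il6 and Lcn2 did not reach the minimum FPKM for a test. The average of Abcb1a combined differences of 0.996 in males and −0.452 in females, without overlap in either series, which differed from each other (adjusted p = 0.00234, limma).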

How the data were processed

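The authors deposited FPKM per transcript for 18 libraries, and the submitters' processing notes list Bowtie2 2.2.8, Cuffdiff 2.1.1, HISAT2 and StringTie 1.3.1. The role of each and the genome build are not given in the sources used here. FPKM hold no read counts, so no count test was run. The FPKM of 55869 transcript rows were summed by gene symbol to 21928 symbols, of which 25 join more than 1 gene identifier, and 10161 symbols under the minimum of 1 FPKM in 3 libraries were left out. One limma 3.58.1 model in R 4.3.3, with 1 mean per group and an intensity trend, was fitted to log2(FPKM + 1) of all 18 libraries. P values were adjusted by Benjamini-Hochberg over 11767 genes, at 0.05. The model was also run on simulated data with independent noise per gene and equal changes in both series. This does not test how calls depend on single libraries. Shared genes were those called on the average of the male and female TAI minus control differences with the same sign in both.

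Members and the 57 gene lists were chosen with earlier results of these data known. Of the lists, 8 with at least 2 called members, or 1 in 10 of those tested, are described, 33 had no called member and 16 had 1 and are not described in detail. Named genes followed 1 rule: the 15 largest shared differences in each direction, the 4 members of lowest p in each described list, genes named by the study for radiation injury, and markers that check the labels. Not every gene that the rule names is reported here. Others were chosen after their values were seen, as were 6 gene families. The alternatives tried changed the pseudocount, the filter, the scaling, the variance model or the threshold, or used single transcripts, a fit of 12 libraries, an additive model, a replicate block and each library left out. Promoter windows came from RefSeq (GRCm38.p6), and figures from matplotlib 3.10.9 in Python 3.11.15.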

Additional observations from a re-analysis of the deposited data

Results flagged for a closer look

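Of 121 named genes tested, 14 had a TAI change that differed between the series past the threshold of limma, as male minus female difference on log2(FPKM + 1). Of these, 7 were clock genes: 3.18 for Dbp, 2.42 for Per3, 2.35 for Per2, 2.28 for Tef, 1.95 for Hlf, 1.26 for Per1 and 1.10 for Usp2. The differences were 2.1 for Pck1, 1.45 for Abcb1a, 0.79 for Abcb1b, 0.95 for Apol7a, 0.67 for Anxa7 and 0.63 for Fut4, and −0.96 for Slc17a4, with adjusted p from 0.000161 (Per3, Tef and Hlf) to 0.0420 (Slc17a4). Among the 14, Pck1, Per1, Apol7a, Anxa7, Fut4 and Slc17a4 were called on average with 1 direction in both series, and their average is not a change of equal size in males and females.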

How the results depend on the processing

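The 199 calls on average, and the 177 with 1 direction in both series, became 18 and 14 with the 12 libraries alone, 26 and 21 with each group weighted by its own spread, 47 and 38 with transcripts tested one by one, 22 and 17 at a threshold of 0.01, 390 and 349 at 0.1, and 0 and 0 in the additive model, where the smallest adjusted p was 0.102. Leaving out 1 library gave 33 to 1040 calls and 27 to 994 with 1 direction. Called members of the 8 described lists, 21 in all, were 0 in the additive model, 4 with weighted groups, 5 with the 12 libraries alone, 12 with median ratio scaling, 11 without the filter and 6 to 31 with 1 library left out. The 157 genes whose change differed between the series became 65 with weighted groups, 56 with 12 libraries and 87 to 184 with 1 library left out, and the 194 genes past an unadjusted p of 0.05 in each series with 1 direction became 121 to 341.

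With the replicate number as a block there were 111 calls, 96 with 1 direction (90 of them among the 177), 13 in the described lists and 94 that differed between the series. The numbers do not pair the samples: same-numbered TAI and control libraries had correlations of −0.46 to 0.21, over 0.1 in 2 of 6 pairs.

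Other pseudocounts, filters, scalings and a fit without the trend kept the count of calls within 1.5 times, although 118 of the 177 shared genes were called with median ratio scaling and 123 under quantile normalization. The 96 named genes called had the same direction under each alternative that gave a value. With a library left out 652 of 1152 values stayed past the threshold, and 648 of 1034 under the other 11 settings. Depth in reads is unknown, so the precision of genes of few FPKM could not be given, and with 3 libraries per group only 25 of the 177 calls held with each library left out.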
